A study of Homo sapiens with 10 samples.

Results

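The genes described here are 10 contractile genes of smooth and cardiac muscle, namely ACTA2, ACTC1, TAGLN, CNN1, TPM2, MYL4, MYL7, TNNT2, TNNI1 and DES. They were chosen by name, all 10 were found among the 64940 genes of the table, and 8 of them had a mean of at least 1 TPM (the abundance of a transcript, scaled so that every library has the same total) and could be tested. RNA-seq was made on 4 libraries of cells derived from H9, an established human embryonic stem cell (hESC) line. The 2 control libraries, titled Normal, come from wild-type cells that the sample labels describe as spontaneously differentiated. The 2 oeDAZL libraries come from hPGCLCs, cells resembling human primordial germ cells, that overexpress DAZL, an RNA-binding protein of germ cells. The study's methods give BMP4 and BMP8a to differentiating cells and deliver the DAZL gene by lentivirus during differentiation. The deposited design text and the paper call the control cells PGCLCs as well. For its microRNA libraries the paper gives control cells BMPs and a GFP lentivirus, followed by cell sorting. The treatment of the RNA-seq control cells is not stated separately. It is therefore open whether BMPs or a control virus were given to them, and DAZL and the culture cannot be told apart. DAZL itself was at 0 and 0.0333 TPM in control cells, against 102 and 101 TPM in oeDAZL cells.

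Muscle contracts when myosin pulls on actin filaments. In smooth muscle the filaments are built from ACTA2 and carry calponin (CNN1), transgelin (TAGLN) and tropomyosin (TPM2). In heart and skeletal muscle, troponin sits on tropomyosin and makes the filament sensitive to calcium, and myosin light chains such as MYL4 and MYL7 stiffen and tune the myosin head. Many of these genes are driven by serum response factor (SRF), which binds a DNA element called the CArG box, together with its partner myocardin. Early heart cells, smooth muscle cells and myofibroblasts share a large part of this program.

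The related muscle genes were present in part. Of 16 other smooth muscle contractile genes 14 averaged 1 TPM or more, where 16687 of all 64940 genes did. The 14 include SMTN (48.0 to 53.0 TPM), MYLK (43.8 to 52.5 TPM) and ACTG2 (40.4 to 80.0 TPM). Of 22 other sarcomere and cardiac genes 12 did, among them NPPB (109 to 159 TPM), ACTA1 (30.8 to 56.2 TPM) and TNNC1 (12.2 to 14.4 TPM). These counts do not by themselves show muscle cells. Myosin heavy chains and some other genes were near or at 0. MYH11, the smooth muscle myosin heavy chain, ranged from 0.375 to 0.434 TPM. MYH6 and MYH7, the cardiac myosin heavy chains, reached at most 1.10 and 0.160 TPM, and MYL2, the ventricular light chain, was listed at 0 in all 4 libraries. Of 9 germ cell markers, NANOS3, SOX17 and PRDM1 lay between 0.732 and 3.35 TPM and DND1 below 1 TPM in every library. DPPA3 was at 0.716 to 2.17 TPM, KIT at 6.23 to 7.70 TPM and CXCR4 at 7.42 to 10.1 TPM. ITGA6 was at 36.1 to 46.1 TPM and TFAP2C at 44.3 to 53.9 TPM. Genes of the amnion and trophoblast list ran from CGB3 at 0.603 to 1.40 TPM and CGA at 4.34 to 15.5 TPM to GABRP at 1208 to 1408 TPM and KRT8 at 6421 to 7321 TPM. These are bulk libraries, so fewer cells expressing a gene and less RNA per cell cannot be told apart. The depth per library is unknown, because TPM keeps no read depth.

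Promoter sequences from RefSeq (GRCh38.p14) were matched for 6 of the 10 genes, ACTA2, ACTC1, CNN1, MYL7, TNNT2 and TPM2. Each window of 300 bases runs from 250 bases before a transcription start to 50 bases from it, and genes with several starts have several windows. A search for the CArG box found an exact match in ACTC1 and MYL7. Allowing 1 of the 6 central bases to be G or C added ACTA2. The windows of CNN1, TNNT2 and TPM2 held neither form. An exact box was present for 1.60% of the 27305 genes with a promoter window, and the exact or relaxed form for 9.88%. The element reads the same way on both strands, so 1 search covered both. The sequences below show the exact box of ACTC1 and MYL7 and both relaxed boxes of ACTA2, in 30 bases of the gene's strand, with the CArG box in capitals. A further 3 relaxed boxes of ACTC1 and 1 of MYL7 are not shown.
ACTA2, ending 111 bases before the start, chr10:88952875-88952904, reverse strand: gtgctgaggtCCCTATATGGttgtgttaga
ACTA2, ending 61 bases before the start, chr10:88952825-88952854, reverse strand: tgtctttgctCCTTGTTTGGgaagcaagtg
ACTC1, ending 99 bases before the start, chr15:34795639-34795668, reverse strand: gcgaaggggaCCAAATAAGGcaaggtggca
MYL7, ending 51 bases before the start, chr7:44141374-44141403, reverse strand: ctgttcctctCCTTATTTGGaccttcaggt
The ACTC1 and MYL7 boxes have A or T at all 6 central bases, and each of the ACTA2 boxes has 1 C or G among them. Distances count the bases that lie between the end of the box and the start. For ACTA2, which has several annotated starts, they refer to the start at position 88952773. A match is a description of the letters and not of binding.

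TPM is per transcript length, so levels can be compared between genes. The order of the 10 genes by TPM was the same in all 4 libraries. TAGLN was the most abundant, at 899 and 1208 TPM in control cells, against 1090 and 1045 TPM in oeDAZL cells. It ranked 105 among all genes by mean TPM. ACTC1, TPM2, ACTA2 and CNN1 followed in that order. MYL7, MYL4 and TNNT2 formed a middle group between 14.4 and 47.9 TPM. TNNI1 and DES stood at the low end, TNNI1 between 0.464 and 1.14 TPM and DES between 0.0554 and 0.436 TPM. Of neighbours in this order, only the ranges of ACTC1 and TPM2 over the 4 libraries overlapped. The 10 genes summed to 2304 and 3037 TPM in control cells, against 2717 and 2601 TPM in oeDAZL cells, and TAGLN made up 39.0% to 40.2% of that sum.

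**Figure D1:**
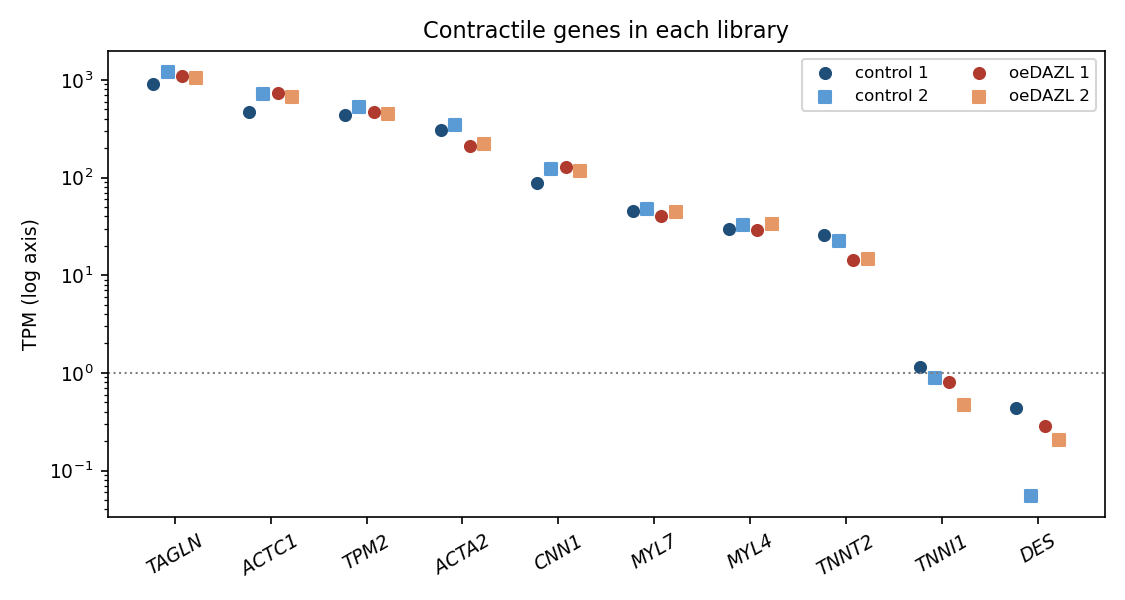
TPM (log axis) of the 10 contractile genes, ordered by mean TPM, with 1 point per library and a dotted line at 1 TPM. TAGLN, ACTC1, TPM2, ACTA2 and CNN1 lie above 80 TPM in every library, and TNNI1 and DES lie near or below the dotted line.

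The genes were compared between oeDAZL and control with limma on log2(TPM + 1), fitted over the 16687 genes whose mean was 1 TPM or more. The log2 fold changes below are on that scale, which understates the change of low genes. A gene was called when its fold change was at least 2 and its unadjusted P-value at most 0.05. None of the 8 tested genes was called (0 higher and 0 lower), where 0.126% of all tested genes were called higher and 0.563% lower, 0.689% in either direction. By P alone, at 0.05 or less and whatever the fold change, 2 of the 8 were lower, ACTA2 and TNNT2, and 0 were higher, where 15.2% of all tested genes were lower and 5.02% higher, 20.2% in either direction. That split depends on the scaling, with 9.16% lower and 9.95% higher after median-of-ratios scaling and 9.07% lower and 8.40% higher after quantile normalization, and ACTA2 and TNNT2 were lower by P alone under both. After adjustment over all tested genes 0 of the 8 passed 0.05, which 0.0599% of all tested genes did. The median log2 fold change of the 8 genes was −0.03, against −0.08 for all tested genes. Both oeDAZL libraries lay below both control libraries for 3 of the 8 (ACTA2, MYL7 and TNNT2), above them for 0, and overlapped them for 5; over all tested genes these shares were 38.4%, 16.0% and 45.6%. With 2 libraries a group, the smallest p that exact permutation allows is 0.333, and no label says that replicates came from separate cultures, so P-values measure only the spread between these libraries.

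**Figure D2:**
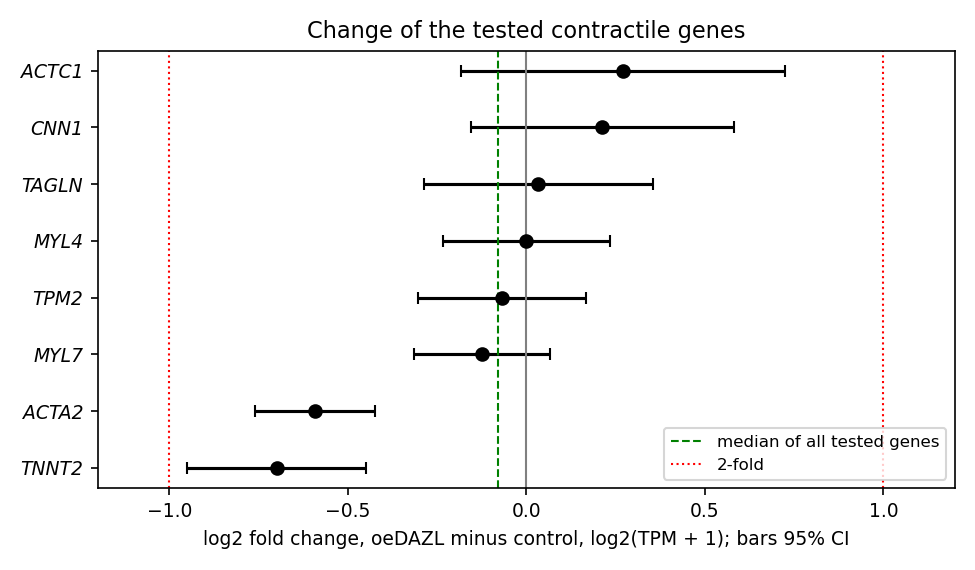
Log2 fold change (oeDAZL minus control, log2(TPM + 1)) of the 8 tested contractile genes with 95% confidence intervals from limma; dotted lines mark a 2-fold change, the dashed line the median of all tested genes. The intervals of ACTA2 and TNNT2 lie below 0, the other 6 include 0, and all 8 lie within the 2-fold lines.

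ACTA2 encodes smooth muscle alpha-actin, the main actin of vascular smooth muscle, which myofibroblasts also express. It was at 308 and 343 TPM in control cells, against 210 and 221 TPM in oeDAZL cells. Both oeDAZL libraries were lower than both control libraries, and the libraries of a group lay closer to each other than the groups did. The means were 326 ± 24.9 TPM (SD, n = 2) in the control and 216 ± 7.43 TPM (SD, n = 2) in oeDAZL, a ratio of 0.662. The log2 fold change was −0.59 (SE 0.07, 95% interval −0.76 to −0.42), with an adjusted p = 0.0836 in limma over all tested genes. Leaving out any 1 library kept the value between −0.67 and −0.51. The gene lies on the reverse strand of chromosome 10 of hg38 from 88935074 to 88991339. Its exons share 29.1% of their bases with ACTA2-AS1, a gene on the opposite strand that was below 1 TPM in every library, and 6.88% with FAS, also on the opposite strand, at 9.80 to 13.1 TPM. A gene on its own strand, ENSG00000286116, shares 7.13% and was at 0.644 to 0.729 TPM. STAMBPL1, on the opposite strand, overlaps ACTA2 without sharing exon bases. Whether the counting used the strand is not given in the sources used here. Of the 1300 windows of 50 bases in its main transcript, 0 occurred exactly in an annotated transcript of a gene elsewhere in the genome, the other actins included.

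TNNT2 encodes cardiac troponin T, which anchors the troponin complex to tropomyosin. It was at 26.0 and 22.4 TPM in control cells, against 14.4 and 14.6 TPM in oeDAZL cells. The oeDAZL libraries were nearly equal to each other and both lay below the control libraries. The log2 fold change was −0.70 (SE 0.10, 95% interval −0.95 to −0.45), with an adjusted p = 0.0896 in limma, and leaving out any 1 library kept it between −0.80 and −0.60. Requiring a fold change of at least 1.5 in place of 2 called ACTA2 and TNNT2 lower, where 3.73% of all tested genes were called lower and 0.833% higher. ACTA2 passed this limit by a small margin, its group means differing by 1.51-fold and those of TNNT2 by 1.67-fold. The ACTA2 log2 fold change fell short of 1.5-fold with median-of-ratios scaling (−0.51) and without control replicate 2 (−0.51). TNNT2 lies on chromosome 1 of hg38 from 201359008 to 201377764. A lncRNA annotated on the same strand (ENSG00000286600) shares 15.4% of the TNNT2 exon bases. It holds 88.5% of the 50-base windows of the main TNNT2 transcript. This lncRNA has no entry among the deposited genes, so its reads could not be separated from those of TNNT2, whose level is uncertain. The tested genes whose pattern over the 4 libraries was closest to that of TNNT2, by the root mean square difference of centred log2(TPM + 1) among 11925 genes averaging 5 TPM or more, were AC069281.2 (0.0072), HECW2 (0.020) and CDO1 (0.024).

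TNNI1, the slow skeletal troponin I that the fetal heart also uses, lies 26.0 kb from TNNT2 on the same strand of chromosome 1, from 201403784 to 201429866. It was at 1.14 and 0.888 TPM in control cells, against 0.806 and 0.464 TPM in oeDAZL cells. All 4 values lay near or below 1 TPM, and the gene was below the limit for testing. Its log2 fold change without a limit on TPM was −0.31 (SE 0.19, adjusted p = 0.617 in limma). TNNI3, the adult cardiac troponin I, took most of the troponin I signal, 72.1% to 79.8% of the summed TPM of TNNI1, TNNI2 and TNNI3.

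MYL7 encodes the atrial regulatory light chain of myosin. It was at 45.6 and 47.9 TPM in control cells, against 40.7 and 44.9 TPM in oeDAZL cells. Its oeDAZL libraries lay just below its control libraries, with a log2 fold change of −0.13 (95% interval −0.32 to 0.07, adjusted p = 0.415 in limma). MYL4, the atrial and embryonic essential light chain, was at 29.6 and 32.4 TPM in control cells, against 29.0 and 33.1 TPM in oeDAZL cells. The MYL4 values of the groups overlapped fully, with a 95% interval of the log2 difference from −0.23 to 0.24. MYL7 lies on chromosome 7 from 44138864 to 44141332, and MYL4 on chromosome 17 from 47200446 to 47223679. Neither gene shared a 50-base window of its main transcript with another annotated gene.

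ACTC1 encodes cardiac alpha-actin, which early heart and skeletal muscle both use. It was at 472 and 726 TPM in control cells, against 739 and 676 TPM in oeDAZL cells. The control libraries differed from each other by 1.54-fold, more than the group means did, and control replicate 2 lay between the oeDAZL libraries. The log2 fold change was 0.27 (SE 0.19, 95% interval −0.18 to 0.72, adjusted p = 0.456 in limma). It was −0.040 without control replicate 1 and 0.58 without control replicate 2, so that its size rests on which control library is kept. A fit with 1 control library does not include the gap between the control libraries, so only its effect size is given. ACTC1 lies on chromosome 15 from 34790107 to 34795589, and 10 of the 1333 windows of 50 bases in its main transcript also occurred in a gene elsewhere. GJD2-DT, on the opposite strand, shares 15.7% of its exon bases and was at 0.165 to 0.352 TPM. CNN1, calponin 1, which binds actin and restrains myosin in smooth muscle, gave the same picture. It was at 88.8 and 124 TPM in control cells, against 128 and 116 TPM in oeDAZL cells, with a log2 fold change of 0.21 (95% interval −0.16 to 0.58, adjusted p = 0.468 in limma), −0.025 without control replicate 1 and 0.45 without control replicate 2. CNN1 lies on chromosome 19 from 11538767 to 11550323.

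TAGLN (transgelin, also called SM22), an actin-binding protein of smooth muscle, and TPM2, beta-tropomyosin, had both oeDAZL libraries between the control libraries. TPM2 was at 433 and 531 TPM in control cells, against 465 and 450 TPM in oeDAZL cells. The log2 fold change was 0.03 for TAGLN (95% interval −0.29 to 0.35, adjusted p = 0.909 in limma) and −0.07 for TPM2 (95% interval −0.30 to 0.17, adjusted p = 0.730 in limma). For TAGLN the choice of control library turned the direction. Against control replicate 2 alone the log2 fold change was −0.18, and against control replicate 1 alone it was 0.25. TAGLN lies on chromosome 11 from 117199370 to 117207464 and shares 34.1% of its exon bases with PCSK7 on the opposite strand, which was at 45.3 to 51.9 TPM. Of its exon bases, 38.1% are shared with ENSG00000280143 on its own strand, at 7.92 to 9.52 TPM, and 7.79% of the 50-base windows of its main transcript occurred in a gene elsewhere, so the TAGLN level is uncertain too. TPM2 lies on chromosome 9 from 35681992 to 35690056. DES, desmin, the intermediate filament of muscle, was at 0.436 and 0.0554 TPM in control cells, against 0.284 and 0.204 TPM in oeDAZL cells, and was not tested. It lies on chromosome 2 from 219418377 to 219426735. Opposite-strand genes share 4.18% of the exon bases of DES (ENSG00000234638, listed at 0) and 4.01% of those of TNNI1 (ENSG00000227048, at most 0.135 TPM).

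Control replicate 1 was below control replicate 2 for 7 of the 8 tested genes, TNNT2 being the exception. The share was 41.6% over all tested genes and 47.4% over those averaging 50 TPM or more. The median difference on the log2(TPM + 1) scale was 0.22 for the 8 genes and −0.04 for all tested genes. It was −0.008 for genes averaging 50 TPM or more. The difference was 0.62 for ACTC1, 0.48 for CNN1, 0.43 for TAGLN and 0.29 for TPM2. Among the 3472 genes averaging 50 TPM or more, 99.5% had a smaller gap between the control libraries than ACTC1, 98.5% a smaller gap than CNN1 and 97.8% a smaller gap than TAGLN. Control replicate 1 was also the lower for 14 of 16 nonmuscle cytoskeletal genes and 9 of 14 smooth muscle genes, but for 5 of 12 sarcomere and cardiac genes (41.7%), near the share of all tested genes. ACTG2, the enteric smooth muscle actin, had 40.4 TPM in control replicate 1 and 80.0 TPM in control replicate 2, and ANKRD1, a gene of stretched heart muscle, at 214 and 387 TPM, whereas TCAP, a sarcomere gene, had 2.31 and 1.55 TPM. Between the oeDAZL libraries the gap was 0.13 for ACTC1, 0.15 for CNN1 and 0.06 for TAGLN. The genes of this paragraph other than the 10 were chosen after their values were seen.

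**Figure D3:**
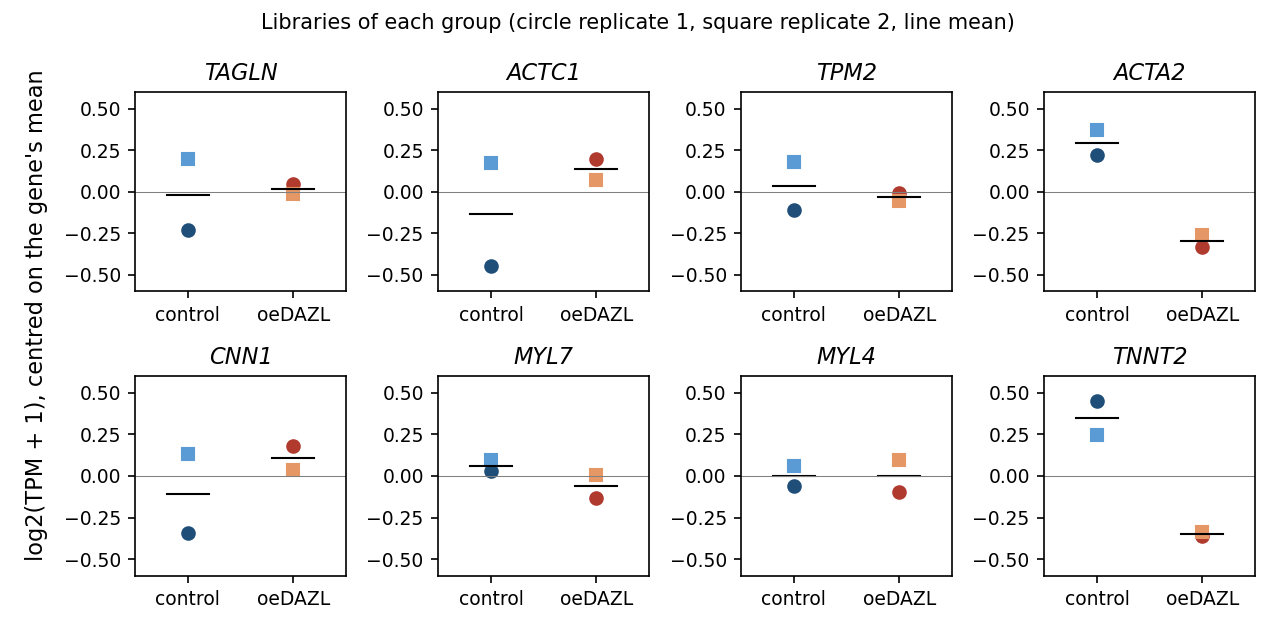
Log2(TPM + 1) of each tested contractile gene in the 4 libraries, centred on the gene's own mean; circles are replicate 1, squares replicate 2 and lines group means. For ACTC1, CNN1, TAGLN and TPM2 the control libraries lie farther apart than the group means, whereas for ACTA2 and TNNT2 the groups are separate.

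The share of each gene within its protein family, a ratio taken inside each library, does not move with a factor common to the whole library. Nonmuscle actins, ACTB and ACTG1, made up most of the actin TPM. ACTA2 took 2.07% and 2.16% of the TPM of the 6 actins in control cells, against 1.34% and 1.40% in oeDAZL cells. ACTC1 took 3.17% and 4.56% in control cells, against 4.70% and 4.28% in oeDAZL cells. The ACTA2 shares of the groups were separate, whereas control replicate 2 lay between the oeDAZL libraries for ACTC1. Among the 4 muscle actins alone (ACTA2, ACTC1, ACTA1 and ACTG2), a set picked with their values in view, ACTA2 made up 36.2% and 28.7% in control cells, against 19.7% and 21.9% in oeDAZL cells. The ratio of ACTA2 to ACTC1 TPM was 0.652 and 0.473 in control cells, against 0.285 and 0.327 in oeDAZL cells.

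**Figure D4:**
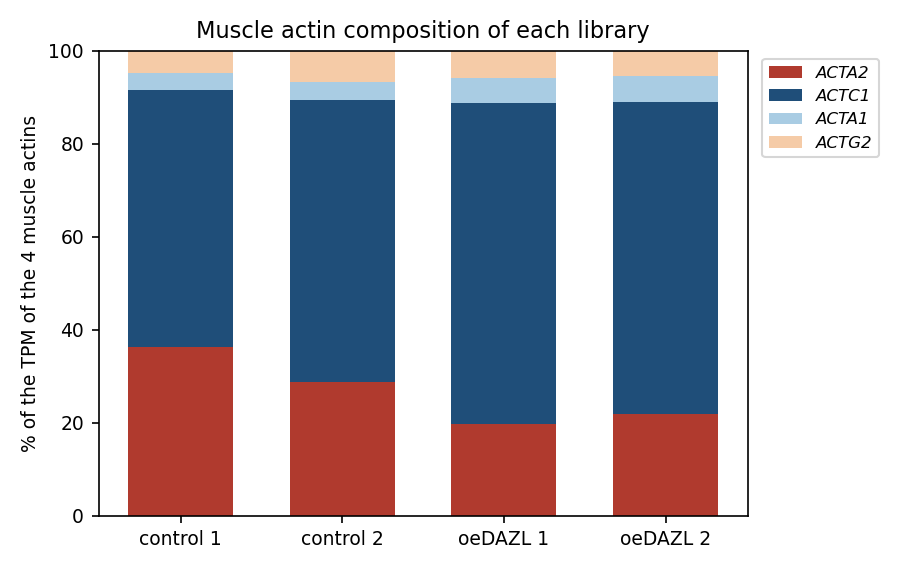
Share (%) of the summed TPM of the 4 muscle actins taken by each gene, with 1 bar per library. ACTA2 takes 36.2% and 28.7% in control cells, against 19.7% and 21.9% in oeDAZL cells, and ACTC1 is the largest share in all 4.

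TAGLN and TAGLN2, its broadly expressed relative, showed a separate composition in spite of the gap between the control libraries. TAGLN made up 56.8% and 56.3% of the transgelin TPM in control cells, against 49.2% and 48.9% in oeDAZL cells. TAGLN2 was at 681 and 935 TPM in control cells, against 1125 and 1090 TPM in oeDAZL cells (log2 fold change 0.47, adjusted p = 0.163 in limma). TNNT2 made up 26.1% and 24.4% of the troponin T TPM in control cells, against 22.7% and 20.8% in oeDAZL cells, the rest being almost all TNNT1, the slow skeletal form. TNNT1 was at 72.7 and 69.1 TPM in control cells, against 49.1 and 55.2 TPM in oeDAZL cells (log2 fold change −0.44, adjusted p = 0.0896 in limma). TPM2 stayed a minor tropomyosin, at 7.61% to 9.08% of the family in all 4 libraries, with TPM1 at 68.6% to 72.1%. CNN1 was the least abundant calponin, at 8.37% and 11.4% in control cells, against 12.1% and 10.8% in oeDAZL cells. MYL4 and MYL7 together stayed a small part of the light chains, MYL4 at 1.12% to 1.30% and MYL7 at 1.57% to 1.79%. DES took at most 0.0367% of a family that was almost wholly vimentin. TNNI1 took 17.6% to 22.8% of the troponin I TPM.

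In the list of 16 other smooth muscle contractile genes, 14 were tested and 0 were called. By P alone, 1 was higher (VCL) and 3 were lower (PDLIM7, LMOD1 and FLNA). The most abundant was TPM1, at 3983 to 4104 TPM. LMOD1, leiomodin, which nucleates actin filaments in smooth muscle, was at 6.38 and 5.96 TPM in control cells, against 4.11 and 4.14 TPM in oeDAZL cells (log2 fold change −0.48, adjusted p = 0.163 in limma). PDLIM7, a scaffold of actin fibres, was at 279 and 301 TPM in control cells, against 220 and 221 TPM in oeDAZL cells (log2 fold change −0.39, adjusted p = 0.0896 in limma). Both had separate groups, as ACTA2 did. Of the 14 tested genes, 6 had both oeDAZL libraries below both control libraries, 2 (CALD1 and VCL) had them above, and 6 overlapped. Over all tested genes these shares were 38.4%, 16.0% and 45.6%. The median log2 fold change of the list was −0.05.

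Of 22 other sarcomere and cardiac genes, 12 were tested, 0 were called higher and 1, MYL3, was called lower. MYL3 encodes the essential myosin light chain of ventricle and slow muscle. It was at 5.48 and 5.08 TPM in control cells, against 1.19 and 1.58 TPM in oeDAZL cells. Both oeDAZL libraries were far below both control libraries, with a log2 fold change of −1.40 (SE 0.19, adjusted p = 0.0885 in limma). TNNI3 was at 5.15 and 3.10 TPM in control cells, against 2.73 and 1.57 TPM in oeDAZL cells (log2 fold change −0.70, adjusted p = 0.245 in limma). NPPB, the precursor of a heart natriuretic peptide and the most abundant of the list, was at 109 and 140 TPM in control cells, against 159 TPM in each oeDAZL library (log2 fold change 0.36, adjusted p = 0.176 in limma). NPPB and ACTA1 were the 2 higher and MYL3 and TNNI3 the 2 lower by P alone. The median of the list was −0.07.

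The upstream regulators were measured in the same libraries, and none of them was called. Of 10 genes of the SRF and myocardin family, 2 were higher by P alone (MYOCD and ELK1) and 1 lower (FHL1). MYOCD, myocardin, was at 3.65 and 4.71 TPM in control cells, against 6.89 and 6.61 TPM in oeDAZL cells, with both oeDAZL libraries above both control libraries (log2 fold change 0.59, adjusted p = 0.149 in limma). FHL1, a partner of muscle proteins, had a log2 fold change of −0.33 (adjusted p = 0.241 in limma). MRTFA, a myocardin relative that senses free actin and the most abundant of this list, was at 61.4 to 66.2 TPM over all 4 libraries.

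Of 16 cardiac transcription factors, 13 were tested, with 2 higher (HAND1 and TBX3) and 1 lower (ISL1) by P alone. HAND1, which early heart and extraembryonic mesoderm express, was at 958 and 1042 TPM in control cells, against 1250 and 1247 TPM in oeDAZL cells (log2 fold change 0.32, adjusted p = 0.0918 in limma). ISL1, a factor of heart progenitors that is also on the amnion list, was at 80.5 and 55.2 TPM in control cells, against 45.4 and 48.7 TPM in oeDAZL cells. GATA5 was at 3.33 and 3.71 TPM in control cells, against 5.38 and 4.41 TPM in oeDAZL cells.

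Of 8 SRF growth response genes, all 8 had a positive log2 fold change, and 0 were called. Their median was 0.32, against −0.08 for all tested genes, of which 65.3% had a negative log2 fold change. The all-gene median moved to −0.0026 with median-of-ratios scaling. By P alone, 3 were higher (FOS, EGR1 and IER2) and 0 lower, where 5.02% of all tested genes were higher and 15.2% lower. FOS was at 56.9 and 47.6 TPM in control cells, against 65.9 and 67.5 TPM in oeDAZL cells. ANKRD1 had the largest log2 fold change of the list, 0.58, with adjusted p = 0.274 in limma, and its control libraries differed by 1.81-fold. CCN1, the most abundant, was at 342 and 448 TPM in control cells, against 417 and 388 TPM in oeDAZL cells, so the groups overlapped. Control replicate 1 was below control replicate 2 for 6 of these 8 genes.

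Of 16 nonmuscle cytoskeletal genes, 0 were called, 1 was higher (TAGLN2) and 2 were lower (TLN1 and MYH10) by P alone. ACTB was the most abundant, at 8194 and 8841 TPM in control cells, against 8945 and 8998 TPM in oeDAZL cells. TLN1, talin, which couples actin to integrins, was at 148 and 154 TPM in control cells, against 123 and 127 TPM in oeDAZL cells.

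**Figure D5:**
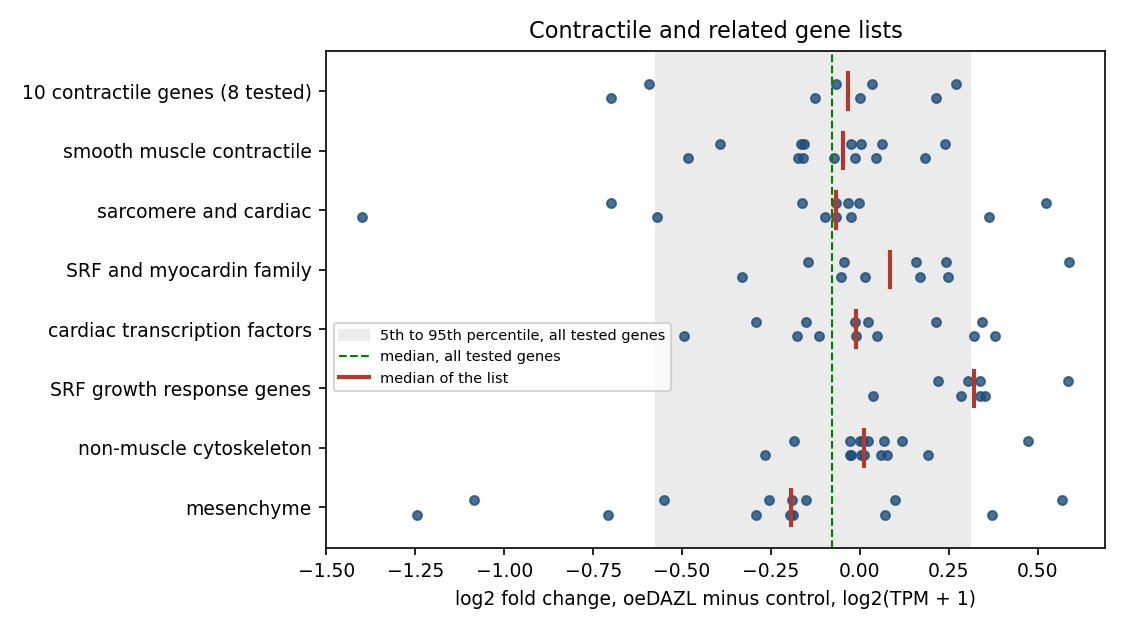
Log2 fold changes (oeDAZL minus control, log2(TPM + 1)) of the tested genes of the contractile and related lists, with 1 point per gene, a red bar at each list's median, the dashed line at the median of all tested genes and a band for their 5th to 95th percentile. The medians of the 10 contractile genes, the smooth muscle list and the sarcomere list lie near the dashed line, and that of the SRF growth response genes lies at 0.32.

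Mesenchyme, pericytes and skeletal muscle also make contractile proteins, and part of their markers were lower in oeDAZL cells. Of 14 mesenchyme markers, 9 had both oeDAZL libraries below both control libraries and 1 above, 7 were lower and 1 higher by P alone, and 2, COL3A1 and DCN, were called lower. Over all tested genes 38.4% lay below and 16.0% above in this way, and 15.2% were lower and 5.02% higher by P alone. Of all tested genes 0.563% were called lower. The pericyte and skeletal muscle counts stand against the same shares. COL3A1, a fibrillar collagen, was at 583 and 479 TPM in control cells, against 224 and 220 TPM in oeDAZL cells (log2 fold change −1.25, adjusted p = 0.0344 in limma). LUM, lumican, was at 335 and 260 TPM in control cells, against 174 and 186 TPM in oeDAZL cells. SNAI2, the marker that was higher, was at 60.9 and 79.6 TPM in control cells, against 90.1 and 90.7 TPM in oeDAZL cells. In this list 10 log2 fold changes were negative and 4 positive (SNAI2, POSTN, TWIST1 and FN1), where 65.3% of all tested genes were negative. The list summed to 8060 and 8734 TPM in control cells, against 7751 and 7873 TPM in oeDAZL cells, and none of its genes was at 0. Of 7 pericyte markers, 6 were found by name (all but MCAM) and 5 were tested, with 2 lower and 0 higher by P alone. RGS5 was at 59.6 to 86.3 TPM and NOTCH3 at 61.0 to 92.7 TPM, whereas ABCC9 was between 0.0485 and 0.130 TPM. The 6 pericyte markers found summed to 174 and 186 TPM in control cells, against 161 and 149 TPM in oeDAZL cells. Of 18 skeletal muscle markers, 4 were tested, with 2 lower by P alone, and the list summed to 84.7 and 77.9 TPM in control cells, against 56.2 and 62.2 TPM in oeDAZL cells, mostly TNNT1. The part of these cell markers in the ACTA2 and TNNT2 values was not tested.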

How the data were processed

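RNA-seq of 2 control and 2 oeDAZL libraries was used, and the miRNA libraries of the series were not analysed here. The authors deposited 1 table of TPM per gene, made from reads trimmed with Trim Galore 0.6.4, mapped to hg38 with HISAT2 2.1.0 and quantified with StringTie 2.1.4 (versions per the submitters' processing notes); the paper's methods keep uniquely mapped reads. The annotation release and strand setting are not given in the sources used here. TPM holds no read depth, so no counting interval was computed, and precision rests on the spread of n = 2 libraries per group.

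From 65003 entries, 45 copies on chromosome Y and 18 repeated entries were left out. Values were analysed as log2(TPM + 1) with limma 3.58.1 in R 4.3.3 (lmFit, eBayes with trend, no covariates) for the 16687 genes averaging 1 TPM or more, with Benjamini-Hochberg adjustment over all of them. The fold and P thresholds are those of the study. On simulated data for 16687 genes, all 200 genes changed by 2 on the log2 scale were called (100%), and 0 unchanged genes were, with noise drawn independently for each gene. The largest change of a tested contractile gene was −0.70 (TNNT2), and recovery of changes of that size was not tested. Where 1 library is left out, the lone library of its group is assumed to vary like the others.

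The members and lists were chosen with earlier results of these data known. Named genes were all members; of 6 related lists the called genes, the most abundant gene and the 2 with the largest change; the 3 genes closest to the member with the largest difference; and genes overlapping a member. Others were named after their values were seen. Positions and overlaps came from GENCODE 44 (hg38). Alternatives were another pseudocount, filters, scalings, no trend, a replicate block, other thresholds and each library left out.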

Additional observations from a re-analysis of the deposited data

How the results depend on the processing

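ACTA2 and TNNT2 kept their direction and stayed at P of 0.05 or less, unadjusted, under all 12 alternatives run for single genes, ACTA2 between −0.67 and −0.51 and TNNT2 between −0.80 and −0.60, with adjusted p-values in limma of 0.0352 to 0.322 and 0.0393 to 0.322. DAZL stayed between 6.63 and 9.78. The number of contractile genes called stayed at 0 higher and 0 lower except that a fold change of at least 1.5 called 2 lower. Of these, ACTA2 passed that limit by a small margin in the main fit. ACTA2 fell short of it with median-of-ratios scaling and with TPM rescaled without mitochondrial genes. The same held without control replicate 2 and without oeDAZL replicate 1. With each library left out in turn, those passing by P alone ranged from 0 to 3 higher and from 2 to 4 lower: 4 were lower without control replicate 1 and 3 were higher without control replicate 2. Over all tested genes, 10.3% were lower and 4.67% higher without control replicate 1, and 19.7% lower and 8.04% higher without control replicate 2, where 673 genes, among them ACTA2, ACTC1 and TNNT2, had an adjusted p under 0.05 in limma. Fits without a control replicate do not include the gap between the control libraries, so their P-values miss that spread. The median of the 8 genes was −0.17 when control replicate 1 was dropped, 0.07 when control replicate 2 was, and 0.05 with median-of-ratios scaling. Leaving out 1 library gave −0.040 to 0.58 for ACTC1, −0.18 to 0.25 for TAGLN, −0.025 to 0.45 for CNN1, −0.21 to 0.079 for TPM2 and −0.094 to 0.095 for MYL4. All but TPM2 turned negative without control replicate 1 (MYL4 −0.06), TPM2 turned positive without control replicate 2, and MYL4 was lowest without oeDAZL replicate 2. TPM2 was 0.016 with median-of-ratios scaling. The cause of the turn with scaling was not tested. Family shares changed sign with a library left out for ACTC1, TPM2, MYL4, TNNI1 and DES, whereas the difference stayed between −0.79 and −0.70 percentage points for ACTA2, between −7.79 and −7.29 for TAGLN and between −4.44 and −2.59 for TNNT2.

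Replicate numbers are shared between the groups, but nothing says that they mark a shared batch. Over the 16687 tested genes the deviations of equal numbers correlated at −0.10. With the replicate number as a block, 0 contractile genes were called, 2 were lower and 0 higher by P alone, and the adjusted p was 0.125 for ACTA2 and 0.144 for TNNT2 in limma, so the block changed no call among the contractile genes. With the numbers crossed, an alternative chosen after seeing the data, 0 were called, 2 were higher and 2 lower by P alone (6.35% and 17.7% of all tested genes), and 2, ACTA2 and TNNT2, had an adjusted p under 0.05 in limma, as had 1089 of all tested genes against 10 without a block. Numbers of calls over all tested genes, 21 higher and 94 lower, came to 55 and 267 at a pseudocount of 0.1, to 6 and 23 among genes averaging 5 TPM or more, where MYL3 was not tested, and to 41 and 52 after quantile normalization.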
